A study of Mus musculus with 16 samples.

Results

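The matricellular genes Thbs1, Thbs2, Thbs4, Tnc, Fn1, Vcan, Sparc, Sparcl1, Ctgf and Cyr61 were followed in the hearts of 2 inbred mouse strains with and without a coronary artery ligation. They were taken by gene symbol from the deposited count table, in which all 10 had a row among 13842 genes, and all 10 were among the 13504 genes that passed the filter on low counts. PolyA RNA came from 16 female mice aged 3 months, with 1 library per mouse and 4 mice in each of 4 groups. DBA/2J mice (DBA below) and C57Bl6/N mice (C57 below) either were left untreated or had a coronary artery tied permanently and were examined 2 weeks later. The sample names call the ligated tissue remote, and the control mice had no sham operation, so the infarct and the surgery cannot be told apart. The tissue is the septum with the left ventricle in the sample labels and the septum with the right ventricles in the design text. The ligated DBA libraries are named 1, S40, S41 and S42, and their values are always given in that order. The column names write the C57 controls as C57Bl-6NCR and the ligated C57 mice as C57Bl-6N, so a substrain difference between these groups, if there was one, cannot be told apart from ligation.

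Matricellular proteins are secreted into the extracellular matrix, where they change how cells adhere, migrate and receive growth factor signals more than they bear load. Most are abundant in development, low in the resting adult heart and made again after injury, largely by fibroblasts and other stromal cells. Thrombospondin 1 activates latent TGF-beta. TGF-beta, and the YAP, TEAD and MRTF regulators that respond to mechanical load, switch on Ctgf and Cyr61, and Ctgf is a common readout of fibrotic signalling. Fibronectin, versican and tenascin-C form the provisional matrix laid down before collagen matures, and SPARC binds collagen and helps its fibrils assemble.

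RefSeq promoter sequences, running from 250 bases before to 50 bases after a start site on GRCm38.p6, were given for 6 of the 10 members, as 7 promoters. Those of Thbs4, Tnc and Vcan are printed because these 3 genes had the largest differences between the ligation responses of the strains. That of Cyr61 is printed as an example of a gene not called in either ligation comparison. Thbs2 was not called in either as well, and its promoter is described below without being printed. Sequences run 5′ to 3′ on the strand of the gene, and capitals mark matches to GGAATG, the core site of TEAD factors, or to TATAAA, the TATA box, on either strand.
Thbs4, chr13:92794769-92795068, minus strand: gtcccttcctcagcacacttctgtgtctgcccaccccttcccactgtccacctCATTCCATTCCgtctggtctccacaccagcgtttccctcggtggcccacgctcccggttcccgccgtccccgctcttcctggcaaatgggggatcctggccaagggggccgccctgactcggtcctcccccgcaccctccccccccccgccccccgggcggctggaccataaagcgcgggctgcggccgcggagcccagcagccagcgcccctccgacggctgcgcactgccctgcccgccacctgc
Tnc, chr4:64046966-64047265, minus strand: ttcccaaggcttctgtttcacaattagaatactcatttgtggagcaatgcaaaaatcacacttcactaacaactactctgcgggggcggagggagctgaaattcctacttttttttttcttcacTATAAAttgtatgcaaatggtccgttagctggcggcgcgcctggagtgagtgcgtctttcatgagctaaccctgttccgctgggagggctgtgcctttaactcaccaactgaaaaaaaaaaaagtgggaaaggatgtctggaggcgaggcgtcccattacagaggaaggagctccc
Vcan, chr13:89742463-89742762, minus strand: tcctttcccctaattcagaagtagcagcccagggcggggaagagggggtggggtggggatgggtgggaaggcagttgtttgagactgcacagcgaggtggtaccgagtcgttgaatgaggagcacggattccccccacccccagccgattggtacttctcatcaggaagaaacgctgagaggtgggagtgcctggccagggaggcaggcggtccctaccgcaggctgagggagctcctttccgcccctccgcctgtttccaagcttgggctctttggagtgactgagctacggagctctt
Cyr61, chr3:145649936-145650235, minus strand: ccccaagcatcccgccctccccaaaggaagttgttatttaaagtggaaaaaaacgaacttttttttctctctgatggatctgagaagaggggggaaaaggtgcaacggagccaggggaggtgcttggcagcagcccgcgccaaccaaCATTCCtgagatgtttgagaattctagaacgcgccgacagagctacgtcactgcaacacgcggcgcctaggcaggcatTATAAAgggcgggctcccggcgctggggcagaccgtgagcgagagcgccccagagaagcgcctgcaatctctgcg
The Thbs4 promoter held 2 TEAD matches on the reverse strand that overlap by 1 base, at -197 to -192 and -192 to -187 from the start site. The Cyr61 promoter held 1 TEAD match on the reverse strand at -103 to -98 and a TATA match at -25 to -20. The Tnc promoter shown held a TATA match at -126 to -121, which the other Tnc promoter of RefSeq also contains, and the Vcan promoter held no match. Of the promoters not printed, that of Thbs2 held no TEAD match and a TATA match on the reverse strand at -126 to -121, and that of Sparc held no match. Of all 32851 RefSeq promoters, 14.7% held GGAATG, 1.36% held it at least 2 times and 13.6% held TATAAA. None of the 7 member promoters given held TGANTCA, the AP-1 site, which 7.81% of all promoters held, or the CArG box bound by SRF, which 1.63% held. No promoter was given for Thbs1, Fn1, Sparcl1 or Ctgf, so nothing is said of those genes. The matches describe letters in these windows and were not tested as sites.

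Per base of transcript, Sparc and Sparcl1 were by far the most abundant members and Tnc was the least abundant in each of the 4 groups. Levels per length are RPKM, reads per kilobase of gene length per M reads of the scaled library. In C57 controls the mean was 204 RPKM for Sparc, 200.7 for Sparcl1, 41.1 for Ctgf, 25.4 for Cyr61, 14.9 for Fn1, 8.62 for Thbs2, 3.07 for Vcan, 2.95 for Thbs4, 2.70 for Thbs1 and 0.406 for Tnc. Neighbours in that order did not overlap between libraries, except Sparc with Sparcl1, Vcan with Thbs4 and Thbs4 with Thbs1. In DBA controls Sparcl1 stood first at 356 RPKM and Sparc second at 289.5, and their libraries overlapped. In both ligated groups Sparc was first and did not overlap Sparcl1, at 551 against 379 RPKM in DBA and 488 against 232 in C57. By its mean, Thbs4 moved from place 8 of 10 in C57 controls to place 6 in ligated C57 hearts, at 9.95 RPKM, where its libraries overlapped those of Thbs2 at 9.31. Its ligated C57 libraries measured 19.7, 4.69, 10.2 and 5.15 RPKM, and its median of 7.70 lay below the 9.36 of Thbs2.

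**Figure D1:**
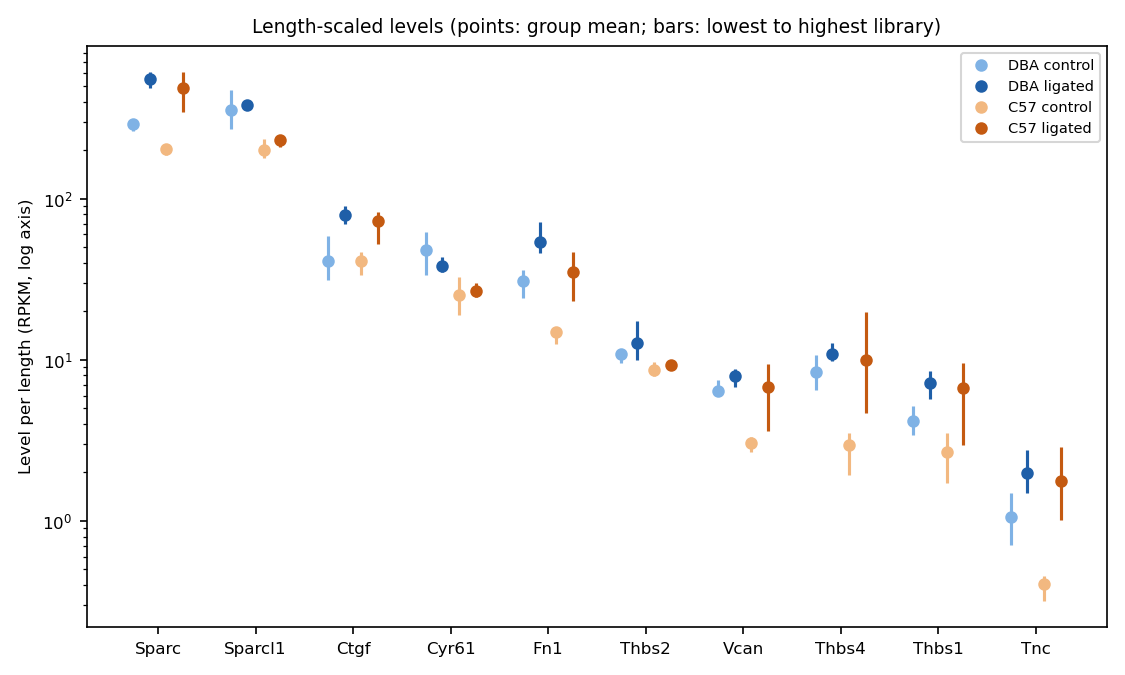
Mean level per gene length (RPKM, log axis) of the 10 members in the 4 groups, with bars from the lowest to the highest of 4 libraries and genes ordered by their level in C57 controls. The means of Sparc and Sparcl1 lie above 200 RPKM in each group, and that of Tnc lies lowest, from 0.406 RPKM in C57 controls to 1.98 in ligated DBA hearts.

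Several members had higher RNA levels after ligation in each strain, and several were higher in DBA than in C57 hearts without ligation. The levels of the 10 members together summed to 2341 to 3036 CPM (counts per M counts of the TMM-scaled library, M being mega) in DBA controls and 3350 to 3920 in ligated DBA libraries. The sums were 1458 to 1736 CPM in C57 controls and 2098 to 3343 in ligated C57 libraries. Sparc and Sparcl1 together made up 68.8% to 77.0% of these sums, and the other 8 members summed to 545 to 783 CPM in DBA controls, 914 to 1192 in ligated DBA, 374 to 428 in C57 controls and 524 to 976 in ligated C57 libraries. Genes are called here at an adjusted p under 0.05 in edgeR (quasi-likelihood test, p adjusted after Benjamini and Hochberg over all 13504 genes, the source of each adjusted p below), and fold changes are log2 values with their standard error (SE). Ligation in DBA called 5 of 10 members higher and 0 lower, where 11.1% of all tested genes were called higher and 13.8% lower, and the members' median log2 fold change was 0.58 against 0.03 over all genes. Ligation in C57 called 7 of 10 higher and 0 lower, where 7.24% of all genes were called higher and 6.06% lower, with a median of 1.2 against 0.02.

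Between the strains, 7 of 10 members were called higher in DBA than in C57 controls and 0 lower, where 12.6% of all genes were called higher and 9.92% lower, and the median was 0.88 against 0.02. In ligated hearts 4 of 10 were called higher in DBA and 0 lower, where 10.6% of all genes were called higher and 8.81% lower, and the median was 0.20 against 0.01. The groups did not overlap, with the first group higher, for 4 of 10 members in DBA ligation (12.9% of all genes), 6 in C57 ligation (11.7%), 7 between controls (11%) and 3 between ligated hearts (15.6%). The ligation comparisons share their groups with the strain comparisons, so these counts are not independent of each other. The authors' deposited table holds the same 5, 7, 7 and 4 members under a false discovery rate of 0.05 in the 4 comparisons.

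**Figure D2:**
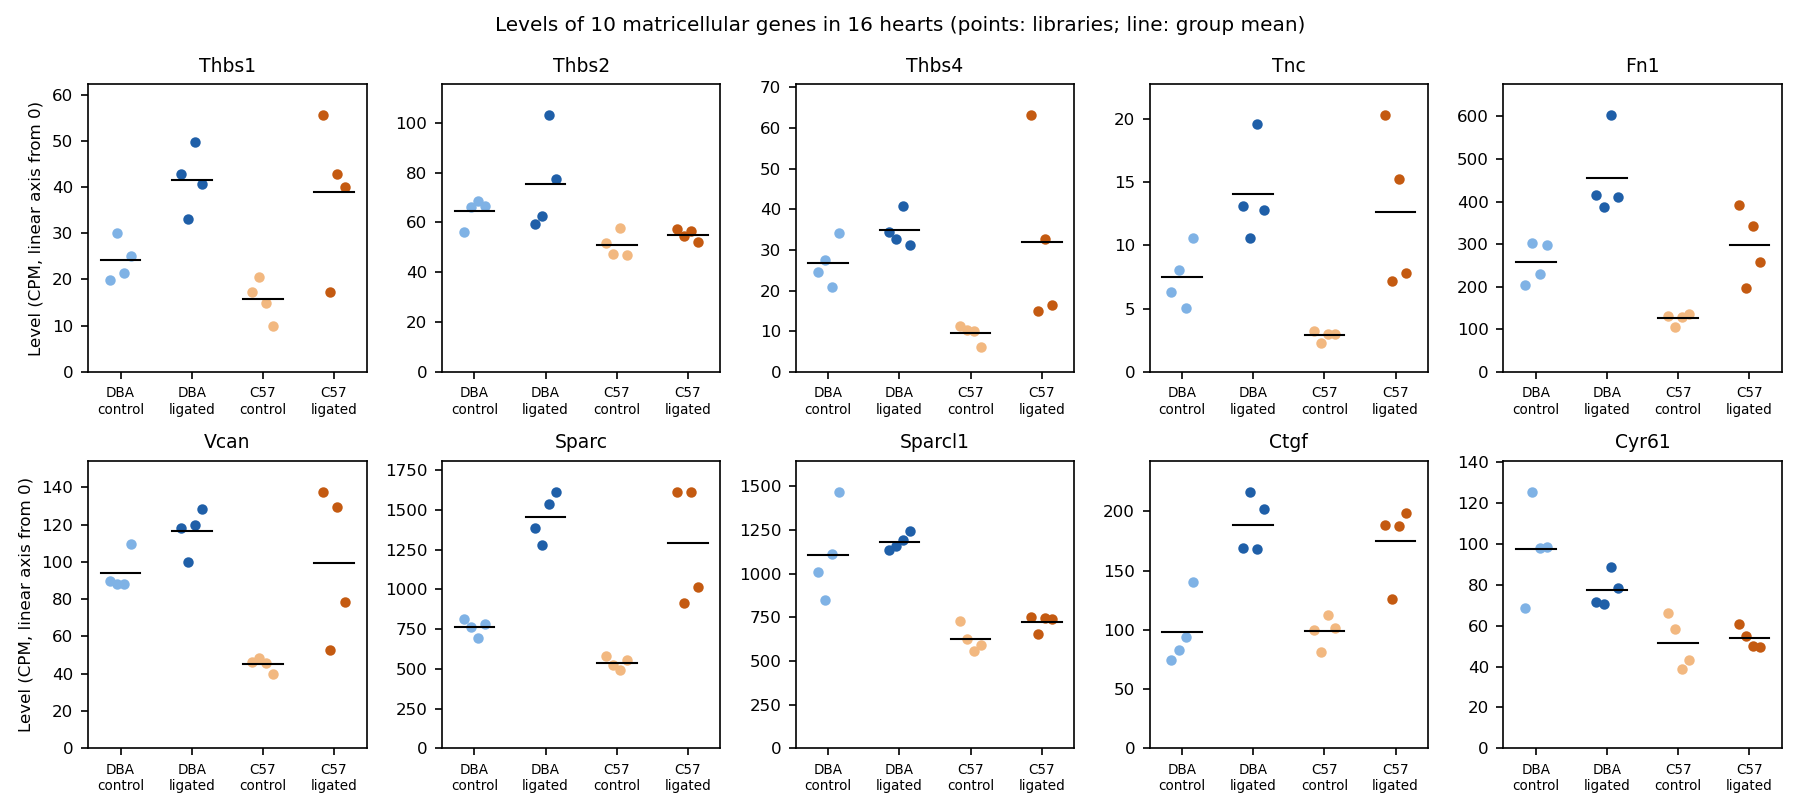
Level (CPM, linear axis from 0) of each member in the 16 libraries, 4 per group, with the group mean as a line. Sparc lies between 492 and 813 CPM in the 8 control libraries and between 918 and 1615 in the 8 ligated ones, while Cyr61 shows no such step.

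Thbs1 encodes thrombospondin 1, a platelet and stromal protein that activates latent TGF-beta and restrains vessel growth through CD36 and CD47. It measured 19.9, 30.0, 21.5 and 25.2 CPM in DBA controls 1 to 4 and 42.7, 33.1, 49.7 and 40.6 CPM in the ligated DBA group. In C57 it measured 17.3, 20.5, 14.8 and 9.99 CPM in controls 1 to 4 and 55.5, 17.2, 42.8 and 39.9 CPM in ligated libraries 1 to 4. The DBA groups did not overlap, while ligated C57 library 2 lay within the range of its controls. The log2 fold change on ligation was 0.78 ± 0.27 in DBA (adjusted p = 0.0417) and 1.33 ± 0.27 in C57 (adjusted p = 0.00598). The DBA call was lost without DBA control 1, 3 or 4 (adjusted p = 0.0935, 0.113 and 0.0925) and without DBA ligated library 1, S41 or S42 (adjusted p = 0.0776, 0.111 and 0.0745). It was also lost, at the edge of the threshold, without C57 ligated library 3 or 4 (adjusted p = 0.05002 and 0.0503). DBA controls did not pass the test against C57 controls (log2 fold change 0.64 ± 0.28, adjusted p = 0.113), except in the fit without C57 ligated library 2 (adjusted p = 0.0300), nor did ligated DBA hearts against ligated C57 hearts (0.09 ± 0.25, adjusted p = 0.860).

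Platelets carry much Thbs1 protein, and 3 of 6 platelet and megakaryocyte markers were tested, with 0 called in either ligation comparison. Their summed level was 10.2 to 12.7 CPM in DBA controls, 10.4 to 12.2 in ligated DBA, 7.92 to 20.4 in C57 controls and 8.10 to 12.4 in ligated C57 libraries.

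Thbs2 encodes thrombospondin 2, a relative of thrombospondin 1 that does not activate TGF-beta and that limits matrix metalloproteinase levels. Its level moved little, from 64.5 ± 5.58 CPM in DBA controls to 75.6 ± 19.9 in ligated DBA hearts and from 51.04 ± 4.96 to 55.1 ± 2.37 CPM in C57 (SD, n = 4 each). The ligation change did not pass the test in DBA (log2 fold change 0.23 ± 0.14, adjusted p = 0.213) or in C57 (0.11 ± 0.14, adjusted p = 0.615). With library totals in place of TMM scaling the DBA change was called at 0.40 (adjusted p = 0.0428), while the median of all genes moved to 0.19. Ligated DBA libraries, at 59.4, 62.6, 103 and 77.3 CPM, all lay above the ligated C57 libraries, at 57.5, 54.5, 56.4 and 52.1 CPM (log2 fold change 0.46 ± 0.14, adjusted p = 0.0243). That difference fell to 0.27 without DBA ligated library S41 (adjusted p = 0.111). It was also not called without S42, C57 ligated library 2 or C57 ligated library 4 (adjusted p = 0.0572, 0.0575 and 0.0665). In controls Thbs2 did not pass the test between the strains (0.33 ± 0.14, adjusted p = 0.0971), except in the fit without DBA ligated library S41 (adjusted p = 0.0288).

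Thbs4 encodes thrombospondin 4, a pentameric thrombospondin of tendon, muscle and heart that is induced by pressure load and acts with Atf6 in the stress response of the endoplasmic reticulum in mice. It measured 24.6, 27.4, 20.9 and 34.3 CPM in DBA controls and 34.5, 32.6, 40.8 and 31.3 CPM in the ligated DBA group. In C57 it measured 11.3, 10.3, 9.96 and 6.20 CPM in controls and 63.1, 15.02, 32.8 and 16.5 CPM in ligated libraries 1 to 4. Each DBA control lay above each C57 control, and each ligated C57 library lay above each C57 control, with a wide spread among the ligated C57 libraries. The change on ligation was 1.78 ± 0.36 in C57 (adjusted p = 0.00521) and did not pass the test in DBA (0.39 ± 0.33, adjusted p = 0.392). The C57 call was lost when only the C57 libraries entered the fit (adjusted p = 0.0564). DBA controls exceeded C57 controls by 1.51 ± 0.37 (adjusted p = 0.00638), and ligated hearts of the strains gave 0.11 ± 0.32 (adjusted p = 0.860).

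Tendon and valve cells also express Thbs4 and Tnc. Of 6 markers of these cells, 3 were tested and 0 were called in either ligation comparison. Of these markers 1 was called higher in DBA than in C57 controls, as were 12.6% of all genes. Their summed level was 23.4 to 45.3 CPM in DBA controls, 23.1 to 37.0 in ligated DBA, 4.65 to 17.4 in C57 controls and 12.2 to 28.2 in ligated C57 libraries. Their part in the Thbs4 and Tnc differences was not tested.

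Tnc encodes tenascin-C, a hexameric protein that loosens cell adhesion and that is nearly absent from resting adult myocardium. It had the lowest counts of the 10 members, from 20 to 449 raw counts in a library. Its levels were 6.33, 8.06, 5.05 and 10.6 CPM in DBA controls, 13.1, 10.6, 19.6 and 12.8 in the ligated DBA group, 3.22, 2.26, 3.03 and 3.01 in C57 controls and 20.3, 7.21, 15.2 and 7.84 in C57 ligated libraries. The DBA groups overlapped, since DBA control 4 lay slightly above ligated library S40, and the C57 groups lay well apart. Tnc rose by 2.14 ± 0.34 in C57, the largest log2 fold change among the members (adjusted p = 0.00115), and by 0.94 ± 0.30 in DBA (adjusted p = 0.0323). The DBA call was lost without DBA control 1 or 3 (adjusted p = 0.0726 and 0.107) and without DBA ligated library 1, S41 or S42 (adjusted p = 0.0529, 0.111 and 0.0560). DBA controls exceeded C57 controls by 1.34 ± 0.36 (adjusted p = 0.0118), and the ligated hearts of the strains gave 0.14 ± 0.28 (adjusted p = 0.798).

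Fn1 encodes fibronectin, the adhesive scaffold that binds integrins and onto which collagen is laid. It measured 205, 302, 229 and 297 CPM in DBA controls, 415, 388, 603 and 411 in the ligated DBA group, 132, 105.5, 129 and 135 in C57 controls, and 393, 196, 342 and 258 in C57 ligated libraries. The ligated libraries of each strain lay above all controls of that strain. Fn1 rose by 0.81 ± 0.19 in DBA (adjusted p = 0.00927) and by 1.24 ± 0.19 in C57 (adjusted p = 0.00115). DBA controls exceeded C57 controls by 1.04 ± 0.19 (adjusted p = 0.000840), a call that held under each alternative tried. Ligated DBA hearts exceeded ligated C57 hearts by 0.61 ± 0.19 (adjusted p = 0.0312), although library S40 at 388 CPM lay below C57 ligated library 1 at 393. That call was lost without DBA ligated library S41 (adjusted p = 0.142) and without C57 ligated library 2 or 4 (adjusted p = 0.102 and 0.0908).

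Vcan encodes versican, a large chondroitin sulfate proteoglycan that binds hyaluronan and gives the early matrix its hydrated volume. It measured 89.9, 88.0, 88.1 and 109.7 CPM in DBA controls, 118, 100.1, 119.7 and 129 in the ligated DBA group, 46.4, 48.6, 45.7 and 39.6 in C57 controls and 138, 52.9, 129 and 78.7 in C57 ligated libraries. The 4 DBA controls lay above all C57 controls and inside the range of the ligated C57 libraries. Vcan rose by 1.15 ± 0.21 in C57 (adjusted p = 0.00343), while the DBA change did not pass the test (0.32 ± 0.21, adjusted p = 0.263). DBA controls exceeded C57 controls by 1.06 ± 0.21 (adjusted p = 0.00163), and ligated hearts gave 0.23 ± 0.20 (adjusted p = 0.509).

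Sparc encodes SPARC, or osteonectin, which binds procollagen outside the cell and is needed for mature fibrils in the infarcted mouse heart. It measured 813, 764, 697 and 785 CPM in DBA controls and 1385, 1280.2, 1536 and 1615 in the ligated DBA group. In C57 it measured 579, 525, 492 and 559 CPM in controls and 1614, 918, 1613 and 1013 in ligated libraries. Each ligated library of either strain lay above all 8 control libraries. Sparc rose by 0.93 ± 0.15 in DBA (adjusted p = 0.00270) and by 1.26 ± 0.15 in C57 (adjusted p = 0.000298), and both calls held under each alternative tried. DBA controls exceeded C57 controls by 0.51 ± 0.15 (adjusted p = 0.0242), a call lost without DBA control 1, C57 control 2 or C57 control 3 (adjusted p = 0.0505, 0.0569 and 0.0730). Ligated hearts of the strains gave 0.17 ± 0.15 (adjusted p = 0.493).

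Sparcl1 encodes hevin, the closest relative of SPARC, which endothelial and mural cells make in quantity. It passed the test between the strains and not on ligation. The levels were 1007, 847, 1113 and 1468 CPM in DBA controls, 1133, 1156, 1192 and 1243 in the ligated DBA group, 729, 625, 554 and 594 in C57 controls and 753, 656, 747 and 742 in C57 ligated libraries. Each DBA library lay above all 8 C57 libraries. DBA exceeded C57 by 0.83 ± 0.13 in controls (adjusted p = 0.000186) and by 0.71 ± 0.13 in ligated hearts (adjusted p = 0.000755), and both calls held under each alternative tried. The ligation change was 0.09 ± 0.13 in DBA (adjusted p = 0.624) and 0.21 ± 0.13 in C57 (adjusted p = 0.284). Without the 3 libraries under 9 M counts it was called in both, at 0.35 in DBA (adjusted p = 0.0337) and 0.29 in C57 (adjusted p = 0.0169).

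Ctgf, now named Ccn2, encodes connective tissue growth factor, a CCN protein that acts with TGF-beta in fibrosis. It measured 74.8, 82.6, 94.0 and 141 CPM in DBA controls, 169, 217, 168 and 202 in the ligated DBA group, 99.8, 81.2, 113 and 101 in C57 controls and 188, 126, 188 and 198 in C57 ligated libraries. Ligated libraries lay above all controls of their own strain. Ctgf rose by 0.96 ± 0.18 in DBA (adjusted p = 0.00406) and by 0.83 ± 0.18 in C57 (adjusted p = 0.00714), both under each alternative tried. It was 1 of 2 members, with Thbs2, whose fitted change was larger in DBA than in C57. The strains gave -0.02 ± 0.18 in controls (adjusted p = 0.940) and 0.11 ± 0.17 in ligated hearts (adjusted p = 0.737).

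Cyr61, now named Ccn1, encodes the other CCN member, an immediate early gene product that binds integrins and promotes the senescence of myofibroblasts in mice. It measured 68.4, 125, 97.8 and 98.7 CPM in DBA controls, 71.5, 70.8, 88.5 and 78.3 in the ligated DBA group, 66.3, 58.3, 38.7 and 43.0 in C57 controls and 60.9, 54.9, 50.02 and 49.6 in C57 ligated libraries. Ligated and control libraries overlapped in both strains, and neither change passed the test, with -0.34 ± 0.17 in DBA (adjusted p = 0.147) and 0.07 ± 0.17 in C57 (adjusted p = 0.807). Without DBA control 1 the DBA change was called lower at -0.48 (adjusted p = 0.0360). DBA exceeded C57 by 0.93 ± 0.17 in controls (adjusted p = 0.000839) and by 0.52 ± 0.17 in ligated hearts (adjusted p = 0.0379), and the groups did not overlap in either case. The second call was lost without any 1 of DBA ligated libraries 1, S40, S41 and S42 (adjusted p = 0.0572, 0.0541, 0.123 and 0.0784) and without C57 ligated library 2, 3 or 4 (adjusted p = 0.0731, 0.102 and 0.0977).

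**Figure D3:**
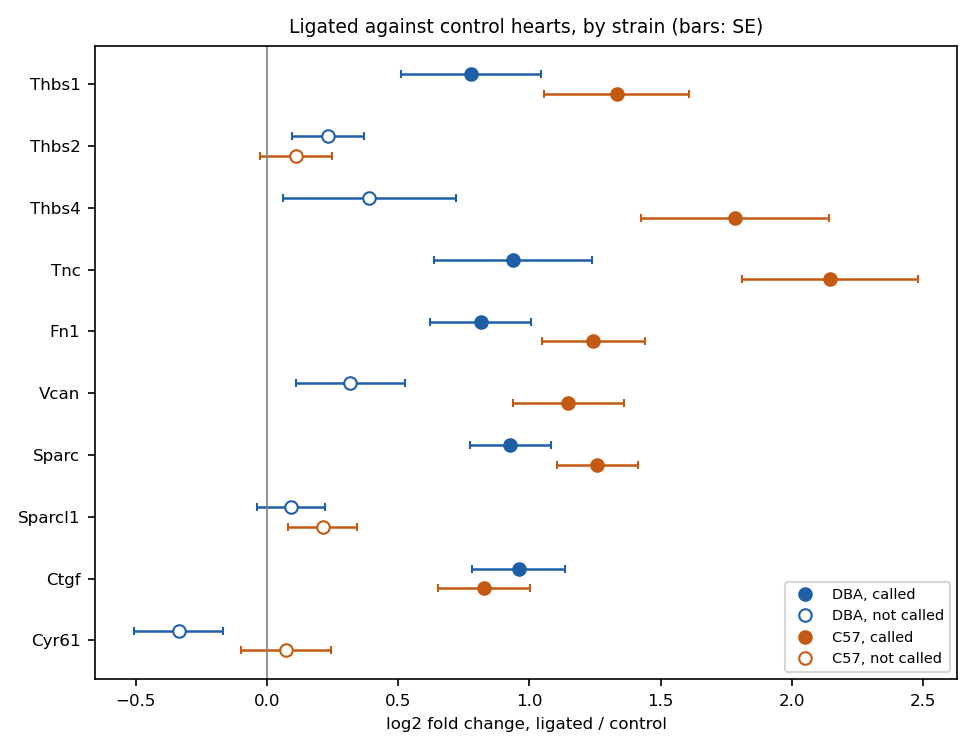
Log2 fold change of ligated against control hearts for each member in DBA and C57, with SE bars, filled where called at an adjusted p under 0.05. C57 points run from 0.07 for Cyr61 to 2.14 for Tnc, and DBA points from -0.34 for Cyr61 to 0.96 for Ctgf.

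The design also asks whether the strains responded differently, which is the interaction of strain and ligation (the DBA change minus the C57 change). It called 0 of 10 members and 0 of 13504 genes (0%) in edgeR, with 3 members and 782 genes (5.79%) at an unadjusted p under 0.05, while DESeq2 called 17 genes and 0 members. The 3 members were Thbs4 at -1.39 ± 0.49 (adjusted p = 0.776), Tnc at -1.21 ± 0.45 (adjusted p = 0.828) and Vcan at -0.83 ± 0.30 (adjusted p = 0.798). In these 3 genes the controls differed between the strains by 1.51, 1.34 and 1.06 and the ligated hearts by 0.11, 0.14 and 0.23 on the log2 scale. The interaction was negative for 8 members and positive for Thbs2, at 0.12 ± 0.19, and Ctgf, at 0.13 ± 0.25, and the median was -0.42 against -0.01 over all genes. C57 ligated library 2 was the lowest of its group for Thbs1, Thbs4, Tnc, Fn1, Vcan, Sparc, Sparcl1 and Ctgf, and without it the lowest adjusted p among the members was 0.140, for Vcan. A member that fails this test is not shown to respond alike in both strains.

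**Figure D4:**
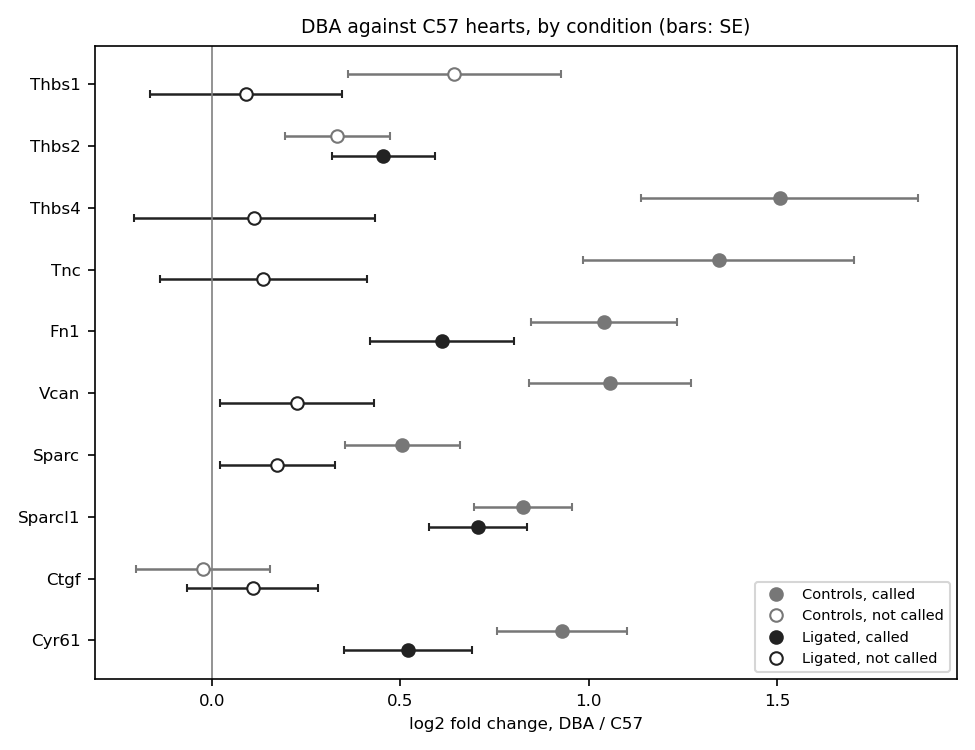
Log2 fold change of DBA against C57 hearts for each member in controls and in ligated hearts, with SE bars, filled where called at an adjusted p under 0.05. Thbs4, Tnc and Vcan lie at 1.51, 1.34 and 1.06 in controls and at 0.11, 0.14 and 0.23 in ligated hearts, while Sparcl1 lies at 0.83 and 0.71.

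Some relatives of the members were also called after ligation. Over all tested genes, ligation called 11.1% higher and 13.8% lower in DBA, and 7.24% higher and 6.06% lower in C57. These shares apply to each list count on ligation below that comes from the fit to all 16 libraries without a GC offset. No all-gene share is given for the alternative fits. Whether list counts there moved with the counts over all genes was not tested. Of 4 tested thrombospondin and tenascin relatives, ligation called 1 higher in DBA and 2 in C57, and 0 lower, with 0 to 2 and 1 to 3 when each library was left out in turn. Thbs3, a pentameric thrombospondin, rose by 0.62 ± 0.20 in DBA (adjusted p = 0.0297) and 1.17 ± 0.21 in C57 (adjusted p = 0.00279). Of 3 tested CCN relatives, 1 was called higher in DBA and 2 in C57. Wisp2, a CCN protein without the C-terminal domain, rose by 1.503 ± 0.31 in DBA (adjusted p = 0.00541) and 2.47 ± 0.34 in C57 (adjusted p = 0.000459), and Wisp1, a Wnt-induced CCN protein, rose by 1.33 ± 0.26 in C57 (adjusted p = 0.00479). Of 4 tested SPARC relatives, 2 were called higher in DBA and 1 in C57, and 0 lower, with medians of 0.33 and -0.21. Spock2 was lower without passing the test, at -0.78 ± 0.28 in DBA (adjusted p = 0.0527) and -0.49 ± 0.27 in C57 (adjusted p = 0.233). The Spock2 change in DBA was called with DESeq2 (adjusted p = 0.0217) and with a GC offset (adjusted p = 0.0295). Smoc1 did not pass in C57, at -0.52 ± 0.18 (adjusted p = 0.0627), while Smoc2 was called higher in DBA, at 0.47 ± 0.13 (adjusted p = 0.0150). Fstl1, a secreted SPARC relative made by cardiac stroma, rose by 0.88 ± 0.21 in DBA (adjusted p = 0.00897) and 1.63 ± 0.21 in C57 (adjusted p = 0.000403). The DBA calls of Thbs3, Wisp2, Smoc2 and Fstl1 were lost without the 3 libraries under 9 M counts (adjusted p = 0.0523, 0.0887, 0.128 and 0.122). That of Smoc2 was also lost with the DBA groups only (adjusted p = 0.0706), and that of Thbs3 with the GC offset (adjusted p = 0.137).

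Among 9 tested other matricellular and versican-binding proteins, 7 were called higher in DBA and 5 in C57, and 0 lower. These counts fell to 4 in DBA without DBA control 3 and to 3 in C57 without C57 ligated library 1, and the DBA count was 3 without the 3 libraries under 9 M counts. Postn, the periostin of activated fibroblasts, rose by 2.43 ± 0.34 in C57 (adjusted p = 0.000522), and fibulin 2, the Fbln2 product that binds versican, rose by 0.85 ± 0.16 in DBA (adjusted p = 0.00414) and 1.24 ± 0.16 in C57 (adjusted p = 0.000403). With the GC offset the DBA rise of Fbln2 was 0.56. Of 10 proteases that cleave versican, thrombospondins or other matrix, 4 were called higher in DBA and 3 in C57. The gelatinase gene Mmp2 rose by 0.96 ± 0.13 and 0.97 ± 0.13, and Mmp14, whose product activates it, rose by 1.13 ± 0.16 and 0.98 ± 0.17. The summed level of the protease list was 329 to 394 CPM in DBA controls, 520.2 to 643 in ligated DBA, 239.7 to 266 in C57 controls and 312 to 488 in ligated C57 libraries.

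The all-gene shares called on ligation were 11.1% higher and 13.8% lower in DBA, and 7.24% and 6.06% in C57. Of 19 tested receptors of the members, 7 were called higher and 2 lower in DBA and 3 higher and 1 lower in C57. Left-out libraries moved the higher count to between 2 (without DBA control 3) and 7 and the lower count to between 0 and 4 in DBA, and to between 3 and 6 higher in C57. Without the 3 libraries under 9 M counts the counts were 2 higher and 0 lower in DBA and 7 higher and 1 lower in C57. Itga5, the fibronectin receptor subunit, rose by 0.63 ± 0.12 (adjusted p = 0.00451) in DBA and 0.65 ± 0.12 (adjusted p = 0.00400) in C57, and the DBA value was 0.33 with the GC offset and 0.42 without the libraries under 9 M counts, both still called. Itga9, a tenascin-C receptor subunit, rose by 0.64 ± 0.10 in C57 (adjusted p = 0.00115), and Cacna2d1, a calcium channel subunit that binds thrombospondins, fell by 0.41 ± 0.10 in DBA (adjusted p = 0.0111). The Cacna2d1 call was lost without the libraries under 9 M counts, at -0.19 (adjusted p = 0.134), without DBA control 3, at -0.33 (adjusted p = 0.05002), and with the DBA groups only, at -0.41 (adjusted p = 0.0520), and its value was -0.22 with the GC offset and -0.24 with library totals. Of 18 upstream genes of the TGF-beta, YAP and MRTF pathways, 3 were called higher and 3 lower in DBA and 4 higher and 0 lower in C57. Their medians were -0.03 in DBA and 0.12 in C57, against 0.03 and 0.02 over all genes. Tgfb3, a TGF-beta ligand, rose in both strains, by 0.59 ± 0.10 and 0.69 ± 0.10, while Atf6 and Tead1 fell in DBA by 0.45 ± 0.08 and 0.47 ± 0.10, or by 0.28 and 0.29 with library totals.

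Beside the list counts that follow stand the all-gene shares called on ligation, 11.1% higher and 13.8% lower in DBA, and 7.24% and 6.06% in C57. Ctgf and Cyr61 are both textbook YAP and TEAD targets. Of 20 other tested targets, 4 were called higher and 0 lower in DBA and 3 higher and 0 lower in C57. Their medians were 0.00 in DBA and 0.10 in C57. Ankrd1, a sarcomeric stress gene of cardiomyocytes, made up 53.3% to 79.4% of the summed CPM of that list. It rose by 0.64 ± 0.21 in DBA (adjusted p = 0.0356), where the libraries of the groups overlapped, and by 1.25 ± 0.21 in C57 (adjusted p = 0.00228). Of 22 immediate early genes, whose RNA can change within minutes of tissue handling, 3 were called higher and 1 lower in DBA and 4 higher and 0 lower in C57. Their summed level was 542 to 1124 CPM in DBA controls, 699 to 767 in ligated DBA, 506 to 722 in C57 controls and 697 to 1110.2 in ligated C57 libraries. In DBA against C57 controls, 5 of the 22 were called higher and 1 lower, with a median of 0.40 against 0.02 over all genes. In ligated hearts 0 were called higher in DBA and 2 lower, with a median of -0.10 against 0.01. All-gene shares were 12.6% higher and 9.92% lower in controls, and 10.6% and 8.81% in ligated hearts. Cyr61 belongs to the immediate early genes by its regulation, and the part of these genes in its values was not tested. Leaving out 1 library at a time changed the ligation counts of these lists, to between 0 and 6 higher for the immediate early genes and 0 and 4 for the YAP targets in DBA, and to between 2 and 7 and 2 and 5 in C57.

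Among all tested genes, 11.1% were called higher in DBA ligation, 7.24% in C57 ligation, 12.6% between controls and 10.6% between ligated hearts. The shares called lower on ligation were 13.8% in DBA and 6.06% in C57. Fibroblast markers moved in the same comparisons as the members. Of 10 markers, 6 were called higher on ligation in DBA, 6 in C57, 8 in DBA against C57 controls and 6 in DBA against C57 ligated hearts, and 0 were called lower in any of these. Their summed level was 3068 to 3499.7 CPM in DBA controls, 4324 to 5254 in ligated DBA, 2634 to 2904 in C57 controls and 3375 to 4425 in ligated C57 libraries. Of 8 cardiomyocyte markers, 6 were called lower on ligation in DBA and 4 in C57, and 0 higher. Their summed level was 87288 to 115029 CPM in DBA controls, 65780 to 68604 in ligated DBA, 104867 to 114378 in C57 controls and 78400 to 97772 in ligated C57 libraries, so heart muscle RNA was present in quantity in each library. Without the 3 libraries under 9 M counts, 1 fibroblast marker was called higher and 3 cardiomyocyte markers were called lower on ligation in DBA. The fibroblast count fell to 3 without C57 ligated library 1 in C57 ligation and without C57 ligated library 2 between ligated hearts, and the cardiomyocyte count in C57 ran from 2 to 4 over left-out libraries. In bulk tissue more cells of a type and more RNA per cell cannot be told apart, and the part of cell composition in the members' differences was not tested.

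Over all tested genes, the shares called on ligation were 11.1% higher and 13.8% lower in DBA, and 7.24% and 6.06% in C57. Of 8 macrophage markers, 5 were called higher on ligation in DBA and 4 in C57, with summed levels of 385 to 450.1 CPM in DBA controls, 486 to 588 in ligated DBA, 289 to 310.2 in C57 controls and 363 to 492 in ligated C57 libraries. The macrophage count fell to 1 in DBA without DBA control 3 and to 0 in C57 without C57 ligated library 1, and it was 0 in DBA without the 3 libraries under 9 M counts. Endothelial markers, of which 8 were tested, were called higher for 5 genes in DBA and 1 in C57, with 2 to 7 and 0 to 3 over left-out libraries, and for 2 genes in DBA both without the libraries under 9 M counts and with the GC offset. Their summed level was 1056 to 1327 CPM in DBA controls, 1475 to 1649.7 in ligated DBA, 1274 to 1523 in C57 controls and 1562 to 1639 in ligated C57 libraries, so the strains overlapped with and without ligation. Smooth muscle and pericyte markers, of which 8 were tested, were called higher for 2 genes in each strain, and their sums of 1248 to 1715 CPM in DBA controls lay above the 899 to 960.1 CPM of C57 controls. In ligated hearts these sums were 1569 to 1691 CPM in DBA and 989.7 to 1287 in C57, and over left-out libraries the counts ran from 1 to 4 in DBA and 1 to 3 in C57. Of these 8 mural markers, 3 were called higher and 1 lower in DBA against C57 controls, with a median of 0.15. In ligated hearts 2 were called higher in DBA and 0 lower, with a median of 0.11. Of the endothelial markers, 0 were called higher and 1 lower in DBA controls, and 0 either way in ligated hearts. The all-gene shares called between the strains were 12.6% higher and 9.92% lower in controls, and 10.6% and 8.81% in ligated hearts. Mural and endothelial cells make Sparcl1. The mural sums were higher in DBA and the endothelial sums were not, and the part of these cells in the Sparcl1 strain difference was not tested. Schwann cell markers were called lower for 2 of 5 genes in C57 and 0 in DBA, and 1 of 4 tested epicardial markers was called higher in C57. Skeletal muscle markers, of which 3 were tested, were called higher for 1 gene in each strain, and of these Acta1 and Ckm are also expressed in heart muscle.

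**Figure D5:**
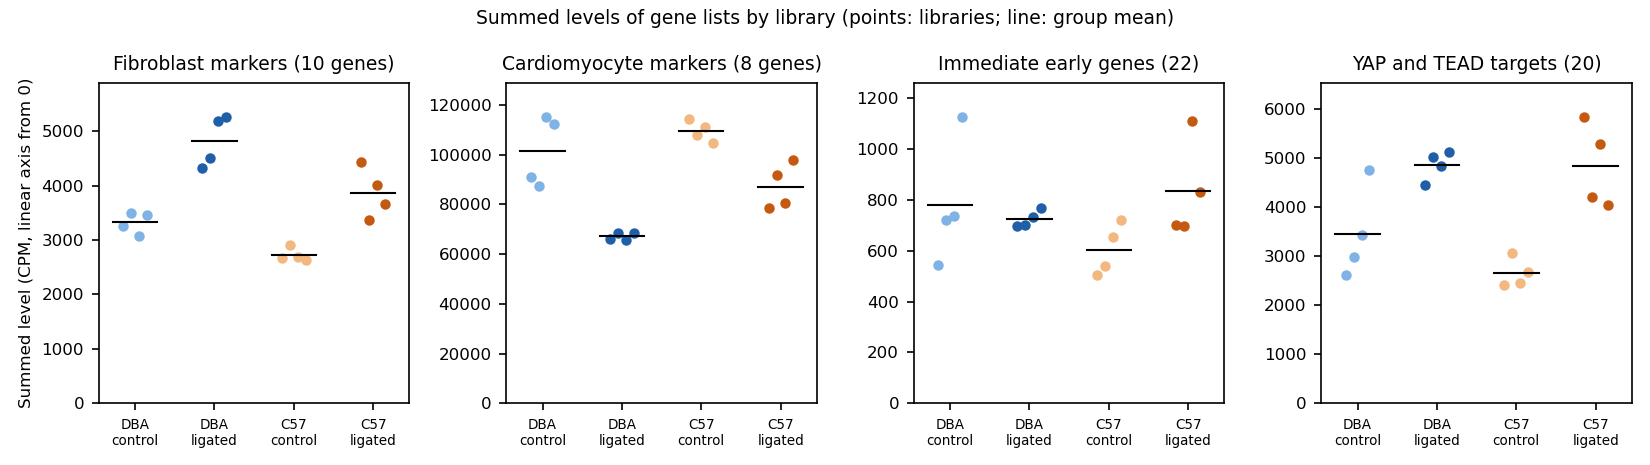
Summed level (CPM, linear axis from 0) of fibroblast markers, cardiomyocyte markers, immediate early genes and YAP and TEAD targets in the 16 libraries, with the group mean as a line. Fibroblast sums lie between 2634 and 3499.7 CPM in controls and up to 5254 CPM in ligated hearts, and cardiomyocyte sums lie lowest in ligated DBA hearts. Immediate early gene sums reach 1124 CPM in DBA control 4 and 1110.2 CPM in C57 ligated library 3.

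For each member the 2 genes with the most similar centred log2 CPM over the 16 libraries were found among the 11371 genes that averaged 2 CPM or more, by the root mean square difference. The nearest genes of Fn1 were the collagens Col14a1 at 0.15 and Col3a1 at 0.17, where Fn1 itself varied by 0.71. Those of Tnc were Lox, the collagen cross-linking enzyme, at 0.23 and Col8a1 at 0.26, against 0.97 for Tnc itself. Those of Sparc were Col15a1 at 0.14 and Emp1 at 0.16, against 0.61. Vcan lay nearest to Thbs3 and Emp1, both at 0.20, against 0.60, and Thbs4 lay nearest to Col1a1 at 0.33 and Vcan at 0.35, against 0.87.

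The nearest genes of Thbs1 were Emp1 at 0.26 and the fibrillin gene Fbn1 at 0.28, against 0.69. Ctgf lay nearest to Mgp at 0.27 and Abcg1 at 0.28, against 0.51, and Cyr61 to Tnfaip3, an inhibitor of NF-kappaB signalling, at 0.21 and Tmtc2 at 0.22, against 0.45. Sparcl1 lay nearest to Adam17 at 0.11 and Slc30a7 at 0.13, against 0.42, and Thbs2 to Fbxl22 and Hiatl1, both at 0.16, against 0.27. All libraries share these 4 groups, so likeness reflects the group means as well as the spread within groups.

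The 16 libraries held between 4.92 and 22 M counts (M for mega-counts), and the control libraries were shallower, from 4.92 to 17 M, than the ligated ones, from 13.7 to 22 M. DBA controls 3 and 4 and C57 control 1 held under 9 M counts, and without these 3 libraries the DBA ligation calls of Thbs1, Tnc and Fn1 (adjusted p = 0.290, 0.168 and 0.106) and the control strain calls of Thbs4, Tnc, Vcan and Sparc (adjusted p = 0.105, 0.101, 0.0703 and 0.0727) were lost, as was the ligated strain call of Fn1 (adjusted p = 0.0717). The log2 fold changes behind these lost calls were 0.73, 0.96 and 0.84 for Thbs1, Tnc and Fn1 in DBA ligation, 1.57, 1.36, 0.997 and 0.59 for Thbs4, Tnc, Vcan and Sparc between controls, and 0.61 for Fn1 between ligated hearts. The rank correlation of a library's deviations with gene GC content was 0.45 and 0.49 in DBA controls 1 and 2 and -0.30 and -0.47 in DBA controls 3 and 4. With a GC offset the DBA ligation calls of Thbs1 (adjusted p = 0.0739) and Tnc (adjusted p = 0.0691) were lost, as were the ligated strain calls of Fn1 (adjusted p = 0.0583) and Cyr61 (adjusted p = 0.0666). When the ligated groups alone entered the fit, Thbs2 (adjusted p = 0.0633) and Fn1 (adjusted p = 0.103) were not called between the strains. Exons of Thbs1, Tnc, Fn1 and Ctgf overlap genes on the opposite strand in GENCODE M21, by 208, 176, 292 and 665 bases, and because the strand setting of the counting is not given in the sources used here, reads of such pairs cannot be told apart.

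The members lie on mm10 at 2:118111922-118127133 for Thbs1, 17:14665500-14694262 for Thbs2, 13:92751586-92794818 for Thbs4, 4:63959785-64047015 for Tnc and 1:71585473-71653234 for Fn1. Vcan lies at 13:89655310-89742512, Sparc at 11:55394159-55420080, Sparcl1 at 5:104079109-104114088, Ctgf at 10:24595442-24598682 and Cyr61 at 3:145646971-145649985. Thbs1 and Ctgf are on the plus strand and the other 8 on the minus strand.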

How the data were processed

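PolyA libraries were prepared with the KAPA mRNA Hyperprep kit after RNeasy Plus Mini extraction, per the labels' protocols. The submitters' processing notes name the build mm10, STAR 2.5.2b, featureCounts of Subread 1.5.1 and edgeR. Neither the strand setting nor the annotation is given in the sources used here. The authors deposited raw counts per gene and library in 1 table of 13842 genes, whose smallest total is 45. The same deposited table gives the authors' log2 fold changes and false discovery rates, that is adjusted p-values, and the gene lengths and coordinates. RPKM were computed from CPM and the deposited gene lengths. DBA/2J reads were counted against a C57BL/6 reference, so sequence differences can lower DBA counts. The other 16 per-sample columns were not used. Of the 4 ligated DBA columns, 3 have mouse numbers unlike those of the labels, and they entered the group without a number, named S40, S41 and S42.

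Counts were filtered by group (13504 genes), scaled by TMM and fitted with edgeR 4.0.16 in R 4.3.3, with 1 mean for each of the 4 groups over 16 libraries and a robust quasi-likelihood test, two-sided, for 5 contrasts. The SE is the log2 fold change divided by the square root of F. CPM are counts per M counts (mega-counts) of the TMM-scaled total. Alternatives were RLE scaling, library totals, DESeq2 1.42.0, no filter, 2 groups only, each library left out, the 3 libraries under 9 M counts left out, a GC offset for 99.4% of genes, and a replicate block. The script was tested on simulated data. The smallest chi-square per degree of freedom among 24 pairs of libraries within groups was 3.47, so no pair looked like 1 library sequenced again. It cannot tell whether separately prepared libraries came from the same mouse. The 10 members, the 9 pathway lists, the 10 marker lists and the naming rule were chosen with earlier results of these data known. The rule picked all members, the 3 smallest p-values per pathway list in each ligation contrast, and the 2 most similar genes per member. Of the genes picked from the pathway lists only some are described above, and the rule did not fix that further choice. Replicates are separate mice, per the labels.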

Additional observations from a re-analysis of the deposited data

Results flagged for a closer look

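Of 40 sets of 4 libraries, 1 for each member and group, 4 held a library that stood apart from its 3 companions by more than Dixon's critical value for 4 samples, where chance gives about 1 in 20. Fn1 was highest in DBA ligated library S41, at 603 CPM. Vcan was highest in DBA control 4, a library of 4.92 M counts, at 109.7 CPM. Sparcl1 was lowest in C57 ligated library 2, at 656 CPM, and Ctgf was lowest in the same library, at 126 CPM.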

How the results depend on the processing

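The number of members called stayed within 1.5 times of the reported one under each alternative except these. Without the 3 libraries under 9 M counts it was 3 for DBA ligation and 3 for the control strain difference, with the GC offset it was 3 for DBA ligation and 2 for the ligated strain difference, and with 2 groups only it was 2 for the ligated strain difference. Leaving out each library in turn gave 3 to 5 for DBA ligation, 7 to 7 for C57 ligation, 6 to 8 for the control strain difference, 1 to 4 for the ligated strain difference and 0 to 0 for the interaction. The causes were not tested. Replicate numbers did not pair the libraries, with correlations of same-numbered deviations from -0.068 to 0.01 for C57 ligation and from -0.257 to -0.037 between the control groups. With the replicate block 6 members were called for C57 ligation, where Thbs1 was not (1.26, adjusted p = 0.0905), and 6 for the control strain difference, where Cyr61 was not (0.92, adjusted p = 0.0638).

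Log2 fold changes that turned sign were not called, except that of Jund in DBA ligation, an immediate early gene that went to -0.27 with the GC offset. Nov in DBA ligation turned to 0.092 with library totals and 0.0023 with the GC offset, Cyr61 in C57 ligation to -0.035 with the GC offset, Ctgf between controls to 0.021 with library totals, and Sparcl1 in the interaction to 0.056 without the shallow libraries. Over libraries left out in turn, the DBA ligation change ran from -0.0061 (without DBA control 2) to 0.26 for Sparcl1 and from -0.15 to 0.024 for Nov. The C57 ligation change ran from -0.046 (without C57 control 3) to 0.21 for Cyr61 and from -0.32 to 0.038 for Nov. The control strain difference of Ctgf ran from -0.24 to 0.086 (without DBA control 1). The ligated strain difference ran from -0.15 to 0.31 for Thbs1, from -0.12 to 0.69 for Thbs4 and from -0.021 to 0.17 for Ctgf, each lowest without C57 ligated library 2, and from -0.073 (without S41) to 0.47 for Tnc. The interaction ran from -0.064 (without S41) to 0.23 for Thbs2 and from -0.22 to 0.043 (without DBA control 4) for Sparcl1. With library totals the median of all genes moved to 0.19 in DBA and 0.13 in C57 ligation. With 4 mice per group and libraries of 4.92 to 22 M counts, a change that did not pass the test may still be present.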
